A study of Mus musculus with 6 samples.

Results

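The genes described here encode 6 subunits or partners of the NADPH oxidases, which make superoxide, and the 3 superoxide dismutases, which remove it. They were taken by gene symbol from the deposited count table as Cyba, Cybb, Ncf1, Ncf4, Rac2, Nox4, Sod1, Sod2 and Sod3, and make up 9 of its 54532 genes. Each symbol had a single gene ID. Levels were measured by RNA sequencing of whole retina from mice of the C57BL/6J strain, wild type in genotype, taken on postnatal day 17. The groups were 3 normal retina samples and 3 samples from mice with OIR, short for oxygen-induced retinopathy, for which pups spend some days under raised oxygen and go back to normal air afterwards. The labels state neither the oxygen schedule nor the animals behind each sample, so p-values measure the spread between these samples, which may be technical. The series looked for transcripts linked to hypoxia-driven growth of retinal vessels.

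NADPH oxidases are membrane enzymes that pass electrons from NADPH across the membrane to oxygen. The phagocyte form has a membrane core of Cybb, the catalytic subunit, and Cyba, its partner. On stimulation cytosolic proteins, Ncf1 and Ncf4 among them, and the small GTPase Rac2 join this core. Nox4 is a related catalytic subunit that also pairs with Cyba, is active without the cytosolic proteins and is known from vascular, mesenchymal and kidney cells. Sod1 is the copper and zinc dismutase of the cytosol, Sod2 the manganese dismutase of mitochondria and Sod3 the secreted copper and zinc enzyme. In the retina, microglia and invading macrophages are known sources of the phagocyte oxidase, and oxidases have been studied in this model as sources of reactive oxygen.

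The libraries held 15818168 to 17163513 counts, and the test covered 17108 genes, among them 8 of the 9 members. Rod transcripts marked the tissue as retina: 5 rod markers summed to 41810 to 45010 CPM in normal and 33650 to 37850 CPM in OIR libraries (CPM, the count scaled to library size with TMM factors). Lens transcripts (6 markers) differed widely between libraries, from 5.69 CPM in the first normal library to 3754 CPM in the third OIR library. Pigment epithelium markers summed to 97.8 to 193.3 CPM in normal and 64.0 to 102.4 CPM in OIR libraries, and 3 of 6 fell. Müller glia markers summed to 3197 to 3736 and 2095 to 2662 CPM, and 4 of 5 fell, as did 3 of the 5 rod markers. These falls are calls at an adjusted p below 0.05 in the edgeR test used below, which called 8.73% of all genes tested lower. The part of these shifts in the results was not tested. By Xist and Y-linked genes, the normal group held 2 male libraries and 1 female library, and the OIR group 1 male library and 2 female libraries.

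In OIR retina, 5 of the 8 tested members were higher and none was lower, by edgeR's quasi-likelihood test with an adjusted p below 0.05. All 5 were oxidase genes. Over all genes tested, 19.8% were called in either direction, 11.1% as higher and 8.73% as lower. DESeq2 and limma-voom each called 4 members higher and 0 lower, and at an unadjusted p under 0.05 edgeR gave 1 lower member, Sod2. Nox4 rose 8.99-fold, Rac2 3.08-fold, Cyba 2.47-fold, Cybb 2.16-fold and Ncf1 2.13-fold, while the 3 dismutases had fold changes between 0.888 and 1.09 and did not pass. The median log2 fold change of the 8 tested members was 1.10, against 0.01 over all genes tested. The members were chosen with earlier results of these data known. Their count and median therefore describe the chosen genes and are no test of the oxidase family. Summed over the 6 oxidase members, the level was 7.80 ± 1.36 CPM in normal and 25.4 ± 0.450 CPM in OIR retina (SD, n = 3).

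**Figure D1:**
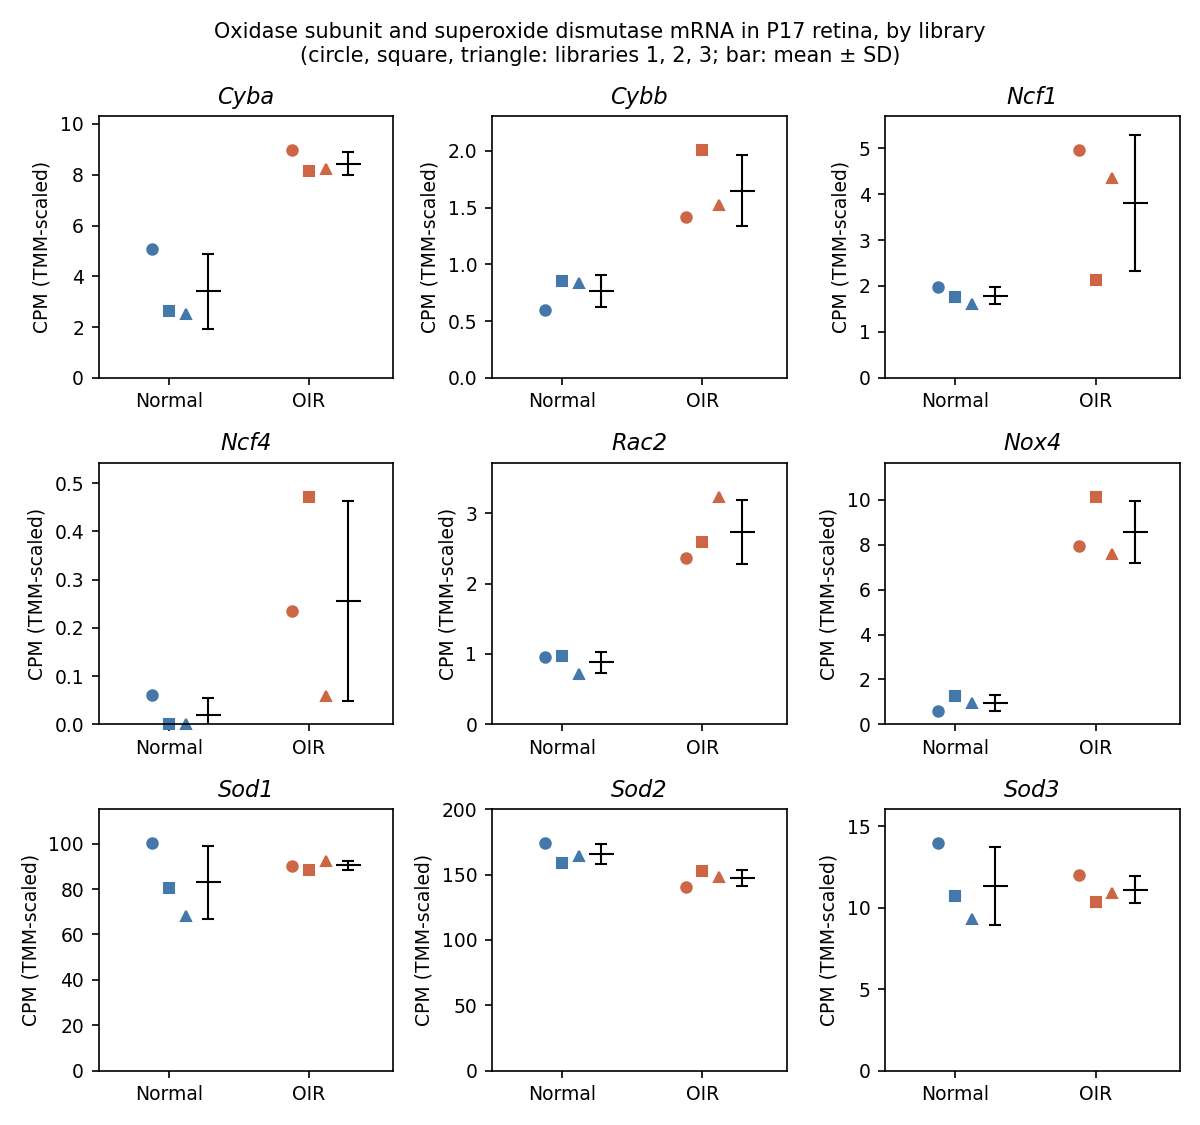
Each panel plots the CPM of 1 member in the 3 normal and 3 OIR libraries, with the mean and SD beside the points. The OIR points of Cyba, Cybb, Ncf1, Rac2 and Nox4 all lie above the normal points, those of Sod2 lie below, and the groups overlap for Ncf4, Sod1 and Sod3.

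Among the catalytic subunits, Nox4 (ENSMUSG00000030562, chromosome 7, 87246096 to 87398710, plus strand, mm10) changed most. Its level was 0.599, 1.28 and 0.965 CPM in the normal libraries and 7.96, 10.1 and 7.58 CPM in the OIR libraries. The lowest OIR library thus lay well above the highest normal library, and the counts behind these values were 46 in the normal and 436 in the OIR group. This is a log2 fold change of 3.17 ± 0.268 (SE), with an adjusted p of 2.3e-05, and the 95% interval of the fold ran from 5.96 to 13.6. By size of rise Nox4 ranked 69th of the genes tested. The exact two-sided permutation p for Nox4 was 0.1, below which no design of 3 against 3 libraries can go.

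Cybb (ENSMUSG00000015340, chromosome X, 9435252 to 9487771, minus strand), the catalytic subunit of phagocytes, was low in both groups. It had 0.599, 0.852 and 0.836 CPM in normal and 1.41, 2.01 and 1.53 CPM in OIR libraries, from 37 and 84 counts in all. The groups did not overlap, but the gap between them was narrower than the range within OIR. The rise of 1.11 ± 0.334 (SE) on the log2 scale had an adjusted p of 0.0398. This call was weak: it was lost in 10 of 14 alternative analyses, among them DESeq2 (adjusted p of 0.123), the fit with the sex of each library (0.0606) and every fit that left out 1 library (0.0621 to 0.165), with the log2 change between 0.935 and 1.202 throughout.

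Cyba (ENSMUSG00000006519, chromosome 8, 122424776 to 122432930, minus strand), the membrane partner of both catalytic subunits, had 5.09, 2.62 and 2.51 CPM in normal and 8.96, 8.14 and 8.23 CPM in OIR libraries. The first normal library stood apart from the other two, and all OIR libraries lay above it. Its log2 fold change was 1.30 ± 0.252 (SE), with an adjusted p of 0.00463. Without the first normal library it was 1.72. That library also had the highest summed level of pigment epithelium markers, 193.3 CPM, and of microglia markers in the normal group, 92.6 CPM; their part in its Cyba level was not tested.

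Of the cytosolic partners, Rac2 (ENSMUSG00000033220, chromosome 15, 78559167 to 78572783, minus strand), the GTPase of blood cells that switches on the phagocyte enzyme, had 0.959, 0.973 and 0.707 CPM in normal libraries. In OIR libraries it had 2.36, 2.60 and 3.23 CPM, so that each OIR value was more than 2 times each normal value. On the log2 scale the rise was 1.62 ± 0.299 (SE), with an adjusted p of 0.00352. Its close relatives did not pass: Rac1, the GTPase of most cell types, had 192 ± 11.6 CPM in normal and 195 ± 0.480 CPM in OIR retina, and Rac3 had 9.91 ± 1.59 and 9.30 ± 0.544 CPM (SD, n = 3). Their adjusted p were 0.842 and 0.723. Per length, Rac2 made up 0.561 ± 0.102% of the transcripts of the 3 Rac genes in normal and 1.71 ± 0.260% in OIR retina.

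Ncf1 (ENSMUSG00000015950, chromosome 5, 134220053 to 134229625, minus strand), the cytosolic organiser of the phagocyte enzyme, had 1.98, 1.76 and 1.61 CPM in normal and 4.95, 2.12 and 4.35 CPM in OIR libraries. The second OIR library, the male one of its group, lay close to the normal range and the other OIR libraries far above it. The log2 difference of 1.09 ± 0.323 (SE) had an adjusted p of 0.0374, and the call was lost in 7 of 14 alternative analyses: limma-voom (adjusted p of 0.0776), sex in the fit, and each fit without 1 library except the second OIR library (0.0538 to 0.164). With the sex of each library in the fit the log2 change was 0.83 (adjusted p of 0.128). Within sexes the OIR minus normal difference in log2 CPM was 0.23 among male libraries and 1.34 among female libraries. Such splits were not particular to Ncf1. In male and female libraries the values were 3.53 and 2.49 for Nox4, the other way, and 1.16 and 1.67 for Cyba, the same way. With 1 male OIR and 1 female normal library, these values could not be compared reliably. Exons of Ncf1 share 408 bases with Gtf2ird2 on the opposite strand, and reads from there cannot be assigned without knowing the strand; Gtf2ird2 had 1619 counts in normal and 1518 in OIR libraries.

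Ncf4 (ENSMUSG00000071715, chromosome 15, 78244801 to 78262580, plus strand), a further cytosolic subunit, which binds membrane phosphoinositides, was near the detection limit. It had 1, 0 and 0 counts in normal and 4, 8 and 1 counts in OIR libraries and was left out of the test. The ratio of summed counts was 12.4 with a 95% Clopper-Pearson interval of 1.87 to 528, which covers counting error only. The third OIR library held no more counts than the first normal library, so the groups overlapped.

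The dismutases were far more abundant. Sod1 (ENSMUSG00000022982, chromosome 16, 90220754 to 90226329, plus strand) had 100.2, 80.6 and 68.0 CPM in normal and 90.3, 88.6 and 92.3 CPM in OIR libraries. The normal libraries spread on both sides of the OIR libraries. Its log2 fold change was 0.12 with an adjusted p of 0.522, and the 95% interval of the fold ran from 0.908 to 1.31. Single normal libraries moved this value: without the first the log2 change was 0.28 (adjusted p of 0.0394), and without the third it was −0.0018 (adjusted p of 0.993).

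Sod2 (ENSMUSG00000006818, chromosome 17, 13006846 to 13040063, plus strand) had 174, 159 and 165 CPM in normal and 141, 153 and 148 CPM in OIR libraries. All OIR values lay below all normal values, a pattern shown in one direction or the other by 36.8% of all genes tested. This is −0.17 ± 0.0667 (SE) on the log2 scale, with an adjusted p of 0.0998, and the 95% interval of the fold ran from 0.801 to 0.983. It did not pass in the main test or in any of 14 alternatives, where the log2 change stayed between −0.21 and −0.13.

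Sod3 (ENSMUSG00000072941, chromosome 5, 52363791 to 52371418, plus strand), the secreted enzyme, had 13.96, 10.7 and 9.32 CPM in normal and 12.02, 10.4 and 10.9 CPM in OIR libraries. All OIR values fell within the normal range. The log2 fold change was −0.03 with an adjusted p of 0.923, and a fold outside 0.765 to 1.25 lay beyond its 95% interval. The sum of the 3 dismutases was 260.2 ± 24.6 CPM in normal and 249 ± 5.03 CPM in OIR retina (SD, n = 3). Within it the ratio of Sod1 to Sod2 was 0.576, 0.507 and 0.413 in normal and 0.642, 0.578 and 0.624 in OIR libraries. The groups did not overlap, but the highest normal and the lowest OIR value nearly met, and the difference was not tested.

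To compare genes with each other, counts were also divided by gene length and scaled to the same sum in each library (transcript units, TPM). Gene length here is the union of all annotated exons, so a gene with long rare transcripts, such as Sod2 with 10008 bases over 8 transcripts, gets a lower TPM than its main transcript would give. In normal retina the order was Sod1 (74.9 ± 10.3 TPM), Sod2 (59.8 ± 1.93), Cyba (11.6 ± 4.02), Sod3 (10.9 ± 1.56), Ncf1 (1.75 ± 0.111), Rac2 (1.02 ± 0.177), Cybb (0.479 ± 0.1196), Nox4 (0.411 ± 0.172) and Ncf4 (0.0327 ± 0.0567), as mean and SD over 3 libraries. Neighbours in this order lay apart in all libraries except for Cyba with Sod3 and Cybb with Nox4, which overlapped.

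In OIR retina the dismutases kept ranks 1, 2 and 4, and Cyba, at 30.5 ± 2.36 TPM, lay above Sod3 in all libraries. Ncf1 (3.91 ± 1.57 TPM), Nox4 (3.79 ± 0.610) and Rac2 (3.29 ± 0.469) followed and overlapped each other in that order, and Cybb (1.06 ± 0.195) lay below them. The ratio of Nox4 to Cybb transcripts was 0.686, 1.03 and 0.791 in normal and 3.86, 3.47 and 3.40 in OIR libraries. On this measure the catalytic subunits were near parity in normal retina, from 46 counts of Nox4 and 37 of Cybb, and in OIR retina Nox4 exceeded Cybb in every library. The lengths used were 8471 bases over 8 transcripts for Nox4 and 5808 over 5 for Cybb. Parity depends on these lengths, whereas the change of the ratio between groups does not. The ratio of Cyba to Nox4 transcripts was 69.3, 16.7 and 21.2 in normal and 9.18, 6.54 and 8.85 in OIR libraries, without overlap and without a test.

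Promoter sequences from RefSeq (GRCm38.p6) were found for 6 of the 9 members. They are shown because the oxidase genes moved in the same direction, and the dismutases are set beside them. Each line gives the 150 bases before the annotated RefSeq start, 5′ to 3′ on the strand of the gene. Capitals mark matches to the motifs named after the lines. This start need not be the outer end of the gene interval given above. The stretches of Cybb, Nox4 and Sod2 lie wholly inside those intervals, that of Cybb far inside. Motifs and GC content below refer to this start alone.

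Nox4 (rose; chr7:87246499-87246648, plus strand): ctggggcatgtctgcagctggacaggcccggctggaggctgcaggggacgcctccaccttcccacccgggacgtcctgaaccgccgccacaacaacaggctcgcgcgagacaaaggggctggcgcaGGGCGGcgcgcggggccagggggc
Cyba (rose; chr8:122432941-122433090, minus strand): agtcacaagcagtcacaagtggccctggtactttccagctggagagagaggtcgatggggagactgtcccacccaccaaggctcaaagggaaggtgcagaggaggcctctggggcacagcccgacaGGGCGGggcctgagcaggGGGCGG
Cybb (rose; chrX:9469325-9469474, minus strand): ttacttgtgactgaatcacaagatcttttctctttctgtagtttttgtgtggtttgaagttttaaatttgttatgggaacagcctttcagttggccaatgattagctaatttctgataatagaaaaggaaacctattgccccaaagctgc
Ncf1 (rose; chr5:134229626-134229775, minus strand): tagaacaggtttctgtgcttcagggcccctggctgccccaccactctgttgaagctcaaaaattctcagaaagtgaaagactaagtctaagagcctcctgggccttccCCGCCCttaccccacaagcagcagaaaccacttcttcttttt
Sod1 (did not pass; chr16:90220612-90220761, plus strand): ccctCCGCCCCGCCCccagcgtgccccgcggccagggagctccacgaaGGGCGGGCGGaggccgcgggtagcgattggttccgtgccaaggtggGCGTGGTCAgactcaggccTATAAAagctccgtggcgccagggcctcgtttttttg
Sod2 (did not pass; chr17:13007689-13007838, plus strand): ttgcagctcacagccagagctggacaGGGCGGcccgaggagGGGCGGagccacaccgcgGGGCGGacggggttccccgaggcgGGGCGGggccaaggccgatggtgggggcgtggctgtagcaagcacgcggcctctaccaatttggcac

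The motifs were searched on both strands in the whole 300-base window of the table, which runs from 250 bases before to 50 bases after the start. They were the core that the myeloid factor PU.1 binds (GAGGAA) and the ACGTG form of the hypoxia response element core. The others were the antioxidant response element core (TGACNNNGC), the GC box (GGGCGG) and the TATA box (TATAAA). GC boxes stood in 5 of the 6 members, all except Cybb, and in 35.7% of all 32851 promoters of the table. Sod2 held 4 of them and Sod1 also 4, of which neighbours overlap. The PU.1 core stood in Cybb and Sod2, against 28.3% of all promoters. The match in Cybb lay 10 to 15 bases after the annotated start, within tgctgttttcatTTCCTCatcagaagaaga (chrX:9469298-9469327, minus strand), and that in Sod2 lay 203 to 198 bases before it, outside the stretch shown.

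The ACGTG form of the hypoxia core had no match in the 6 members, against 19.6% of all promoters. The form GCGTG was not searched or counted over all promoters. It stands in the lines shown for Sod1 and Sod2, so absence of the core cannot be read from this search. The antioxidant core and the TATA box were each found in Sod1 alone, against 12.4% and 13.6% of all promoters. The GC content of the window was 35.3% in Cybb, which only 3.98% of promoters undercut, 54.0% in Ncf1 and 60.7% to 68.3% in Cyba, Sod2, Sod1 and Nox4, beside a median of 52.7%. The oxidase promoters thus spanned the range from Cybb, the lowest of the 6, to Nox4, the highest. A match is a description of letters in the reference sequence and not evidence of binding.

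Besides Rac1 and Rac3, the other oxidase genes without a call included Cybc1, the chaperone of the phagocyte core, at 22.4 ± 2.95 CPM in normal and 21.3 ± 1.57 in OIR retina (SD, n = 3; adjusted p of 0.731). Other catalytic subunits were scarce. Nox1 had 14 counts in the normal and 9 in the OIR libraries, Nox3 had 0 in all 6, and Duox1 and Duox2 had at most 13 counts in a group.

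Genes that act upstream of the phagocyte enzyme rose in 10 of 14 cases and fell in 1, with a median log2 fold change of 1.46, against 11.1% higher and 8.73% lower among all genes tested. Arhgdib, the blood cell inhibitor that holds Rac proteins in the cytosol, went from 4.08 ± 0.573 to 11.9 ± 1.32 CPM (SD, n = 3). The myeloid transcription factor genes Irf8 and Spi1, which encodes PU.1, had log2 fold changes of 1.77 (adjusted p of 0.000206) and 1.49 (adjusted p of 0.0219). The call of Spi1 was lost without the second normal, the third normal, the first OIR or the second OIR library (adjusted p of 0.0551 to 0.0971).

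The Fc receptor genes Fcgr2b, for an inhibitory receptor, and Fcgr3 rose by 2.16 and 1.44 on the log2 scale (adjusted p of 0.00138 and 0.00121). Itgam, the integrin subunit of the phagocyte complement receptor, rose by 1.62 (adjusted p of 0.00589). Prkcb, a protein kinase C gene also expressed in retinal neurons, was the member of this list that fell, from 128 ± 12.1 to 86.0 ± 6.38 CPM. Vav1, Pik3cg and Prkcd missed the threshold at log2 differences of 1.12, 0.84 and 0.26 (adjusted p of 0.0809, 0.0544 and 0.256). With no filter on low counts Vav1 and Pik3cg passed (adjusted p of 0.0218 and 0.0234). Vav1 also passed without the third OIR library (1.43, adjusted p of 0.0175), Pik3cg without the second normal or second OIR library (1.02 in both) and Prkcd without the first normal library (0.44, adjusted p of 0.0412).

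**Figure D2:**
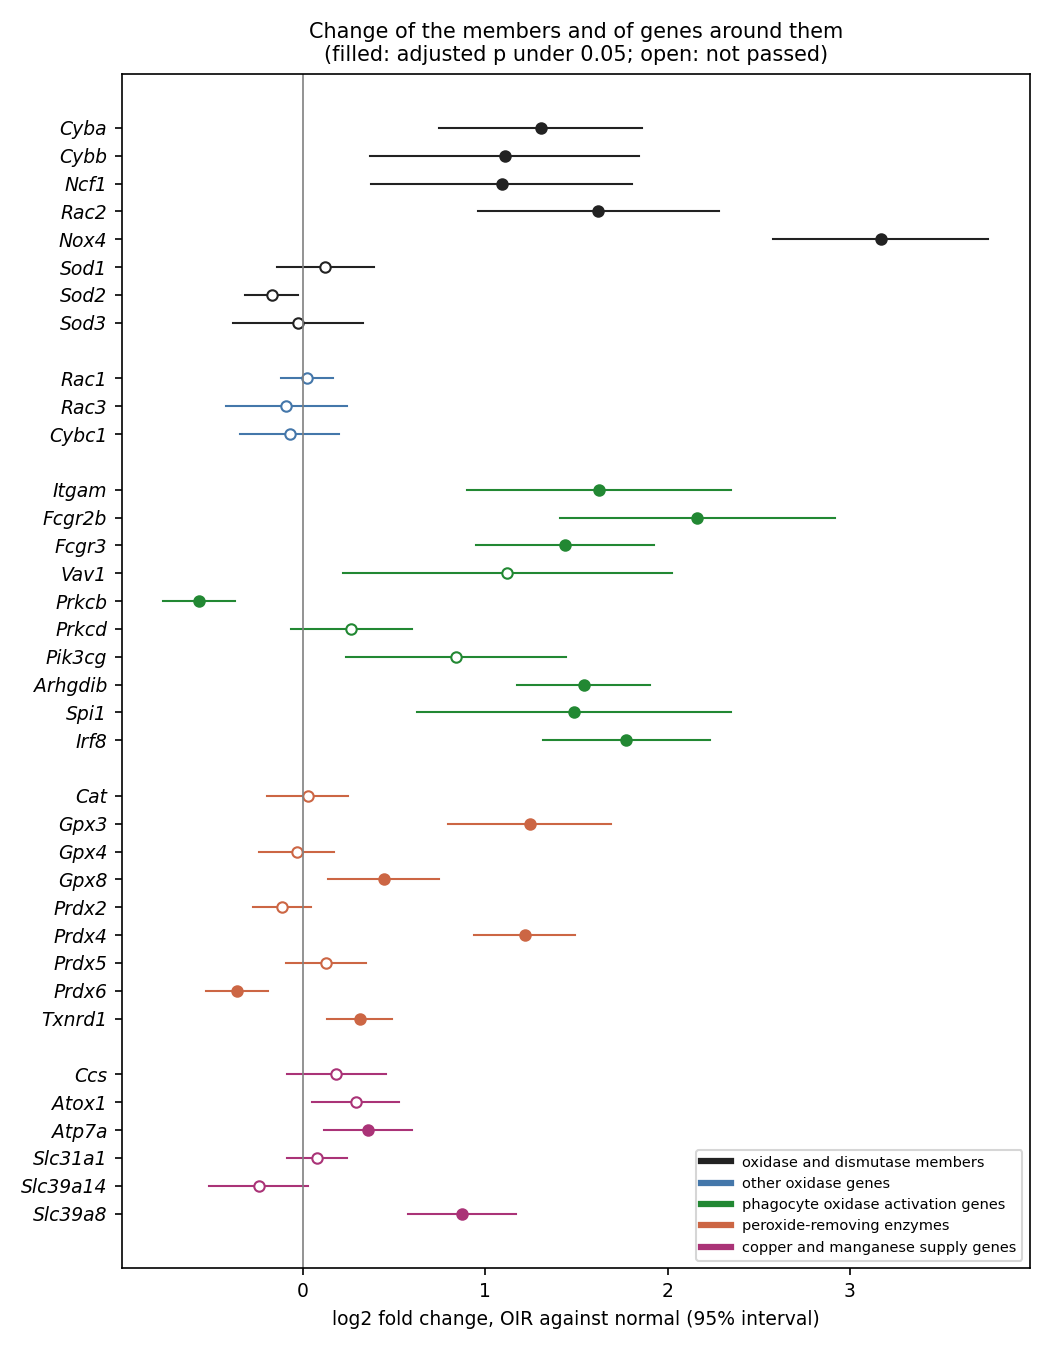
Points give the log2 fold change of OIR against normal retina and lines its 95% interval, for the 8 tested members and for the tested genes the text names from 4 related lists. Filled points passed at an adjusted p under 0.05; Nox4 lies farthest to the right at 3.17, and the points of the 3 dismutases lie between −0.17 and 0.12.

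Dismutases make hydrogen peroxide, and 19 genes for its removal were listed, including thiol proteins and reductases that serve the peroxide-removing enzymes. Of these 19, 4 rose, 1 fell and 14 did not pass, beside 11.1% higher and 8.73% lower among all genes tested. Their median log2 fold change was 0.13, against 0.01 over all genes. Prdx4, the peroxiredoxin of the endoplasmic reticulum, went from 7.82 ± 0.442 to 18.2 ± 1.54 CPM, and Gpx3, the secreted glutathione peroxidase, from 11.0 ± 3.35 to 26.0 ± 4.49 CPM (SD, n = 3), with adjusted p of 8.6e-05 and 0.00171. Smaller rises were those of Gpx8, an endoplasmic reticulum peroxidase (log2 change 0.44, adjusted p of 0.0456), and of Txnrd1, the cytosolic thioredoxin reductase (0.31, adjusted p of 0.021). The call of Txnrd1 was lost without the second normal, first OIR or second OIR library, and that of Gpx8 with DESeq2, with no filter, with the replicate block, with sex in the fit and without any library other than the first normal one. Prdx6, an abundant cytosolic peroxiredoxin, fell by 0.36 on the log2 scale (adjusted p of 0.00717).

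Among the peroxide-removing genes that did not pass, the most abundant were Gpx4, Prdx2 and Prdx5. Gpx4, the lipid peroxide reductase, had 392 ± 49.1 CPM in normal and 383 ± 25.4 CPM in OIR retina, Prdx2 207 ± 16.8 and 191 ± 8.08 CPM, and Prdx5 90.4 ± 13.5 and 98.7 ± 3.15 CPM (SD, n = 3). Cat, the peroxisomal catalase gene, had 44.8 ± 5.42 and 45.6 ± 3.51 CPM. Without the first normal library Prdx5 passed (log2 change 0.26, adjusted p of 0.026), and the number of higher genes in this list was 8. Without the second normal, first OIR or second OIR library it was 2.

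Genes that carry copper or manganese, not all of them towards the dismutases, rose in 2 of 7 cases, beside 11.1% of all genes tested. Of these calls 1 was lost in 8 of 14 alternatives. Slc39a8, a zinc and manganese importer, went from 6.70 ± 0.564 to 12.3 ± 0.689 CPM (SD, n = 3; adjusted p of 0.00125). Atp7a, the copper pump that loads secreted enzymes such as Sod3, had a log2 change of 0.36 (adjusted p of 0.0408), the call that was lost, among others in every fit without 1 library except the second normal one. Ccs, the copper chaperone of Sod1, had 16.3 ± 2.12 and 18.6 ± 0.702 CPM and did not pass (adjusted p of 0.339). Atox1, Slc31a1 and Slc39a14, which carry copper or manganese, had log2 changes of 0.29, 0.07 and −0.24 and did not pass either. Atox1 passed without the first normal library (0.38, adjusted p of 0.0298).

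Among markers of cells that can carry the phagocyte oxidase, the summed level of microglia markers was higher in all OIR libraries. The sums of macrophage and of neutrophil markers overlapped between groups, but the largest part of the macrophage sum was Lyve1, which fell. In bulk retina, more cells of a type and more RNA per cell cannot be told apart. Of 13 microglia markers 9 rose and 4 did not pass, beside 11.1% higher among all genes tested. The 4 were Aif1, Csf1r, P2ry12 and Tmem119, so the rise was not shared by all markers. Their log2 changes were 1.03, 0.42, 0.27 and 0.17 (adjusted p of 0.191, 0.114, 0.457 and 0.747). The median log2 fold change of the 13 was 1.37, and their summed level was 76.6 to 92.6 CPM in normal and 140 to 188 CPM in OIR libraries. Of 8 markers of recruited or perivascular macrophages 3 could be tested: Mrc1 rose 5.37-fold and F13a1 5.59-fold, while Lyve1, also a lymphatic gene, fell from 20.3 to 12.5 CPM. Lyve1 made up most of the summed level in normal retina, and the sums were 21.7 to 24.0 CPM in normal and 22.1 to 24.3 CPM in OIR libraries. A sum without Lyve1 was not computed, so the overlap does not describe the other markers. The markers other than Mrc1, F13a1 and Lyve1 were too low to be tested, and their ratios have 95% Clopper-Pearson intervals for counting error only. In normal and OIR libraries Cd163 had 9 and 31 counts (ratio 3.29, 1.53 to 7.86) and Plac8 2 and 13 (6.21, 1.41 to 56.7). The intervals included 1 for Ms4a7, with 19 and 23 counts (1.16, 0.603 to 2.25), and Ccr2, with 5 and 11 (2.10, 0.673 to 7.72). Ly6c2 went the other way, with 5 and 0 counts (interval 0 to 1.04). Neutrophil markers (12 genes) summed to 1.58 to 3.60 CPM in normal and 2.77 to 3.95 CPM in OIR libraries, and the defining genes Ly6g and Elane had 0 counts in all 6. Lymphocyte markers (8 genes) summed to at most 1.71 CPM, and Cd2 had 0 counts in all libraries. Erythroid genes, a sign of blood in the tissue, summed to 60.3 to 90.3 CPM in normal and 175.5 to 209.9 CPM in OIR libraries.

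Set against the summed microglia markers, the phagocyte members separated less. Per 100 CPM of these markers, Cybb had 0.647, 1.06 and 1.09 CPM in normal and 0.752, 1.44 and 0.920 CPM in OIR libraries. Ncf1 had 2.14, 2.20 and 2.10 CPM and then 2.63, 1.52 and 2.62 CPM, and Cyba 5.50, 3.26 and 3.28 CPM and then 4.76, 5.83 and 4.95 CPM. The groups overlapped for these 3 genes. Rac2 had 1.04, 1.21 and 0.924 CPM in normal and 1.25, 1.86 and 1.95 CPM in OIR libraries, which did not overlap. The part of the microglia in the rise of each gene was not tested.

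Nox4 was set against vascular markers. Endothelial markers rose in 10 of 12 cases, beside 11.1% of all genes tested, and summed to 512 to 589 CPM in normal and 828 to 900.1 CPM in OIR libraries. Mural cell markers, of pericytes and smooth muscle, rose in 9 of 10 cases against the same 11.1% and summed to 262 to 301 and 679 to 773 CPM. Per 100 CPM of endothelial markers Nox4 had 0.102, 0.237 and 0.188 CPM in normal and 0.903, 1.23 and 0.842 CPM in OIR libraries. Per 100 CPM of mural markers it had 0.206, 0.425 and 0.368 CPM and then 1.17, 1.31 and 0.992 CPM. Neither ratio overlapped between groups, and the mean ratios were 5.63 and 3.48 times as high in OIR retina. These factors depend on the largest gene of each sum. Kdr, in the endothelial sum, had 246 CPM in normal and 247 CPM in OIR retina and did not pass (adjusted p of 0.97). Rgs5, in the mural sum, had 190 and 476 CPM. Ratios without these genes were not computed. Which cells held the Nox4 transcripts was not tested.

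**Figure D3:**
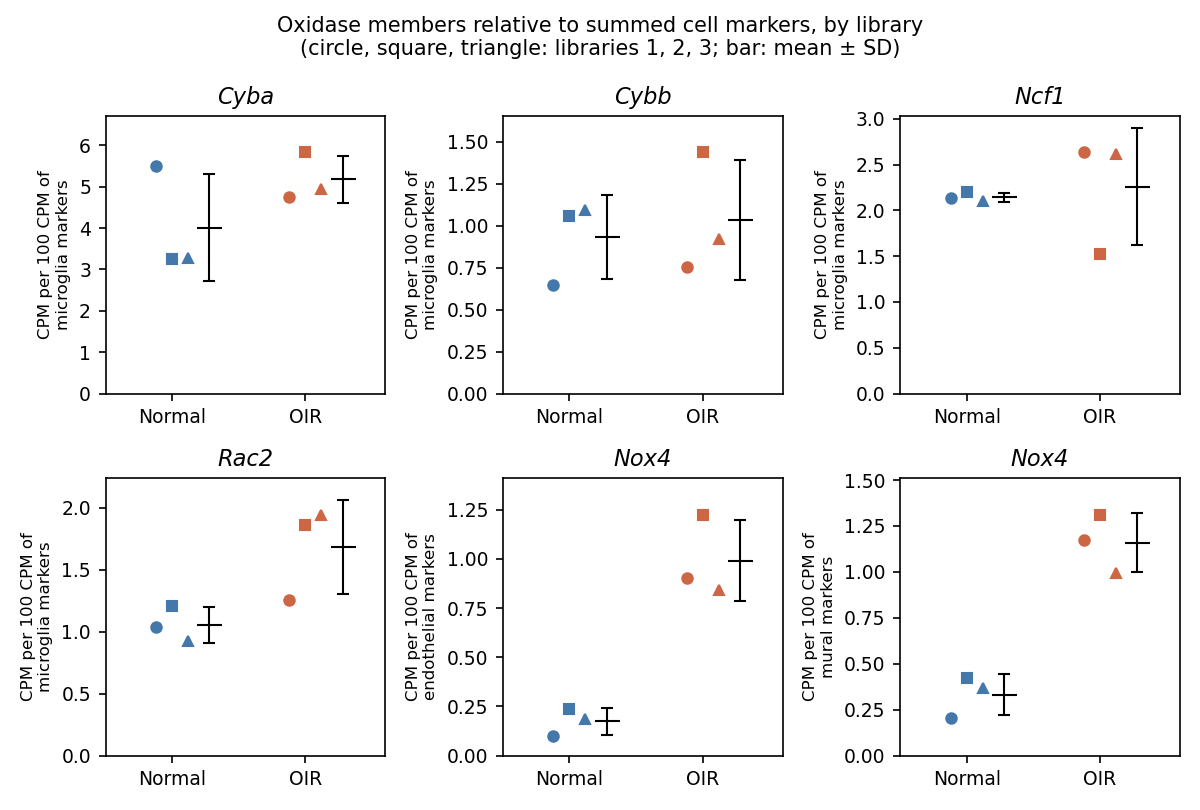
Panels plot, by library, the CPM of a member per 100 CPM of summed microglia, endothelial or mural markers, with mean and SD. Groups overlap for Cyba, Cybb and Ncf1 and lie apart for Rac2 and for both Nox4 ratios.

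Genes whose log2 CPM ran most like a member's over the 6 libraries were sought among 13864 protein-coding genes with a mean of at least 1 CPM. Nox4 was closest to Prss56, Zwilch and Tgfbi, with Pearson r of 0.998, 0.997 and 0.997. Prss56, a serine protease gene, rose by 3.30 on the log2 scale and Tgfbi, a secreted matrix protein gene, by 2.72. Cybb was closest to Fanca, Agbl5 and Fam20a (r of 0.996, 0.994 and 0.994), and Sod3 to Ndufb10, Becn1 and C1ql2 (0.990, 0.983 and 0.983). With 2 groups of 3 libraries, a gene that differs between the groups correlates with many others: 546 genes had an r over 0.95 with Nox4, 195 with Cybb and 23 with Sod3.

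**Figure D4:**
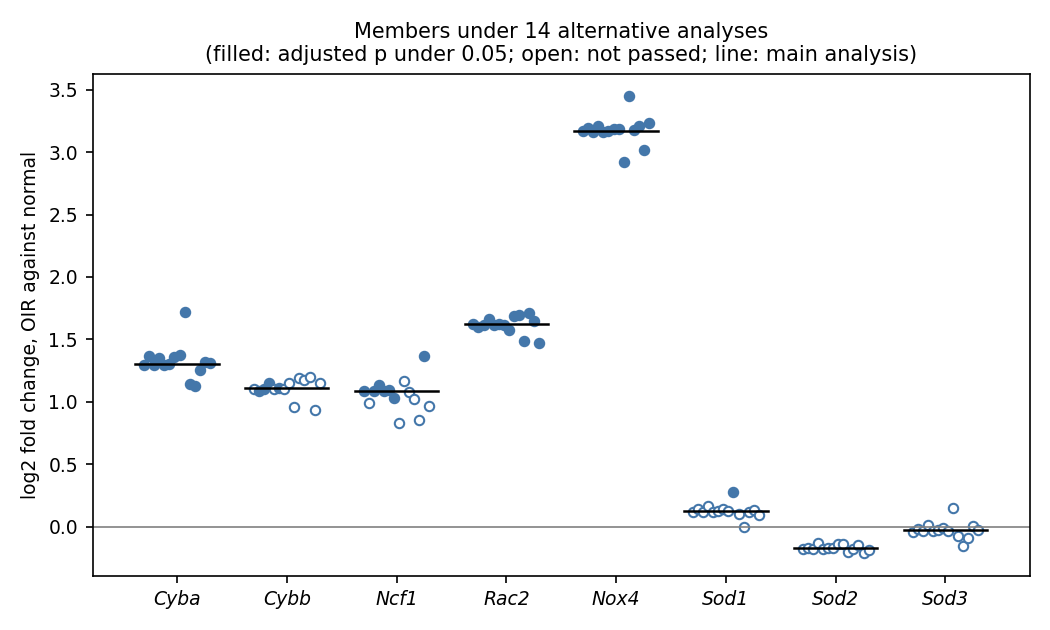
For each tested member, points give the log2 fold change under the 14 alternative analyses and the line that of the main one; filled points passed. All points of Nox4, Rac2 and Cyba are filled, those of Cybb and Ncf1 are mixed, and those of Sod2 and Sod3 are open.

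Across the 14 alternative analyses of each member, the calls of Nox4, Rac2 and Cyba held in all. Their log2 fold changes lay between 2.92 and 3.45, 1.47 and 1.71, and 1.13 and 1.72. Without the third OIR library, which had the highest lens sum, these 3 members were called higher, and leaving out any other single library left 3 or 4 calls.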

How the data were processed

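Total RNA was extracted with TRIzol and sequenced from NEBNext Ultra libraries, per the labels' protocols. The authors deposited raw counts per gene for 3 normal and 3 OIR retina libraries. The submitters' processing notes list mm10 and, in no stated role, DESeq2 1.20.0, featureCounts 1.5.0-p3, HISAT2 2.0.5, fastp and CASAVA 1.8. Not given in the sources used here: annotation release, strand setting and read filters. All members matched GENCODE vM21 in position and exon length. Columns named with OIR went to the OIR samples and the others to the normal samples with that number.

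Counts were tested with edgeR 4.0.16 in R 4.3.3 (glmQLFit and glmQLFTest, TMM scaling, filterByExpr with minimum count 10 and total 15, no covariate) with Benjamini-Hochberg adjustment over 17108 genes at 0.05. Standard errors are the log2 fold change over the square root of F, and intervals use the moderated degrees of freedom. Log2 CPM used a prior count of 2. The test was checked on simulated data. No 2 libraries of a group agreed within sampling noise (chi-square of 7.20 to 23.1 for each degree of freedom), so none was treated as a second deposit of another, which does not show separate animals.

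Alternatives were DESeq2 1.42.0, limma-voom (limma 3.58.1), median-of-ratios factors, library totals alone, unfiltered genes, a floor of 1 CPM in 3 libraries, the replicate block, sex as a covariate, each library left out and a threshold of 0.01. The members and lists were chosen with earlier results of these data known. The text names all members, from each related list up to 5 called genes by adjusted p and up to 3 uncalled genes by level, and Rac1, Cat, Ccs, Itgam, Spi1 and Nox1. Nox3, Duox1, Duox2 and the overlapping Gtf2ird2 were named after their values were seen. So were the marker genes Aif1, Csf1r, P2ry12, Tmem119, Mrc1, F13a1, Lyve1, Cd163, Plac8, Ms4a7, Ccr2, Ly6c2, Kdr and Rgs5. One gene that the rule names is not reported here. No amino acid sequences were used here.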

Additional observations from a re-analysis of the deposited data

How the results depend on the processing

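The number of members called higher was 5. It was 3 with sex in the fit and at an adjusted p under 0.01, and 3 to 4 with 1 library left out. Members called lower stayed at 0 in all alternatives run. With the replicate block 4 members were higher. Same-numbered libraries did not deviate together (r of 0.089, −0.231 and 0.092), so the numbers were not taken as pairs. Over all genes, 1901 were higher and 1493 lower. Left-out libraries gave 1237 to 2097 and 761 to 1734, and an adjusted p under 0.01 gave 1116 and 647. Library totals alone raised the share of higher calls from 56.0% to 64.9%.

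Genes of the peroxide-removing list numbered 4 higher, 2 at an adjusted p under 0.01, and 2 to 8 with 1 library left out. Genes that carry copper or manganese numbered 2 higher, and 1 to 2 with 1 library left out. They numbered 1 with DESeq2, the replicate block, sex in the fit or an adjusted p under 0.01. Signs turned in genes that had not passed. Sod1 turned without Normal 3. Sod3 was at 0.0156 with library totals alone, 0.1483 without Normal 1 and 0.0084 without OIR 2. Without Normal 2, Rac1 was at −0.0262, Cybc1 at 0.0053 and Cat at −0.0543. Cat was at −0.0444 without OIR 3. Rac3 was at 0.0386 and Gpx4 at 0.0726 without Normal 1, and Gpx4 at 0.0104 with library totals alone. With 1 library left out, log2 changes ran from −0.0018 to 0.2816 for Sod1, −0.1526 to 0.1483 for Sod3, −0.0262 to 0.0609 for Rac1, −0.1762 to 0.0053 for Cybc1, −0.1923 to 0.0386 for Rac3, −0.1000 to 0.0726 for Gpx4 and −0.0543 to 0.1216 for Cat. Of 602 values for 43 genes, 539 kept direction and side of the threshold, 42 lost the call and 10 gained it. The cause was not tested. Cybb, Ncf1, Rac2 and Ncf4 rest on 1 to 194 counts a group, which limits their precision.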
